A study of Mus musculus with 12 samples.

Results

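The fibroblast growth factor (FGF) receptors and ligands were followed as 10 genes, matched by gene name among the 54232 genes of the count table. The receptors were Fgfr1, Fgfr2, Fgfr3, Fgfr4 and Fgfrl1, and the ligands were Fgf1, Fgf2, Fgf7, Fgf10 and Fgf18. Of these 10 genes, 8 passed the filter on low counts, together with the rest of the 12897 genes tested, while Fgfr4 and Fgf1 did not. The tumors came from SVR, a single mouse angiosarcoma cell line of endothelial origin (strain C57BL/6 in the labels), injected under the skin of athymic nude mice 8 to 12 weeks old, which lack most T cells. Mice were gavaged every day with vehicle (control), with 1 mg/kg of the MEK inhibitor trametinib, with 3 mg/kg of the VEGF receptor inhibitor cediranib, or with both drugs at these doses (combination), and 3 tumors of each group were sequenced after capture with exome probes. The sources used here do not give how long each tumor had been treated, and time on treatment may differ between groups. Tumor cells, stroma and skin are all mouse, and the reads do not separate them.

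FGF ligands bind receptor tyrosine kinases together with heparan sulfate chains, and the activated receptors signal through the docking protein FRS2 to RAS, MEK and ERK. ERK activity then switches on genes of the Sprouty, DUSP and ETV families, many of which dampen the same pathway. In skin, FGF7 and FGF10 are made by dermal fibroblasts and act on the epithelial form of FGFR2 in keratinocytes, whereas FGF2 with FGFR1 is best known for its action on endothelial cells and fibroblasts.

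The libraries held 9478865 to 11666094 counts. Values are CPM, the counts of a gene in 1000000 counts of a library, with library sizes corrected by TMM factors. A library with 0 counts of a gene allows up to 3 counts, which is 0.251 to 0.349 CPM (counting error only). A gene was called at a false discovery rate (FDR, Benjamini-Hochberg over all genes tested) of 0.05 in edgeR's quasi-likelihood test if its log2 fold change was also 1.5 or more in size. Among endothelial markers, Pecam1 ran from 0.272 CPM to 5.01 CPM and Cdh5 from 6.90 to 120 CPM over the 12 tumors. The summed level of 12 endothelial markers was 196 to 447 CPM in control, 50.7 to 112 in trametinib treated, 116 to 333 in cediranib treated and 33.5 to 78.6 CPM in combination treated tumors. Epidermal markers stood apart in 5 tumors. The 26 epidermis markers summed to 1933 CPM or more in cediranib replicates 1 and 3 and in all 3 combination treated tumors, to 716 CPM in control replicate 1, and to at most 162 CPM in the other 6. In bulk tumors, fewer cells of a type and less RNA per cell cannot be told apart.

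Fgfr1 was the main FGF receptor transcript in all 12 tumors. Per length of transcript its median level over the tumors was 36.2 CPM per kb, with a range of 29.8 to 57.1. The next gene, Fgfr2, had a median of 0.554 CPM per kb and a range of 0.215 to 3.22, so the ranges of these neighbours did not overlap. Below it lay Fgfrl1 (0.351 CPM per kb), Fgf18 (0.287), Fgf10 (0.235), Fgf7 (0.234), Fgfr3 (0.12) and Fgf2 (0.115), and each of these overlapped its neighbour in that order. Because capture probes differ between genes, such levels order the genes only roughly.

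**Figure D1:**
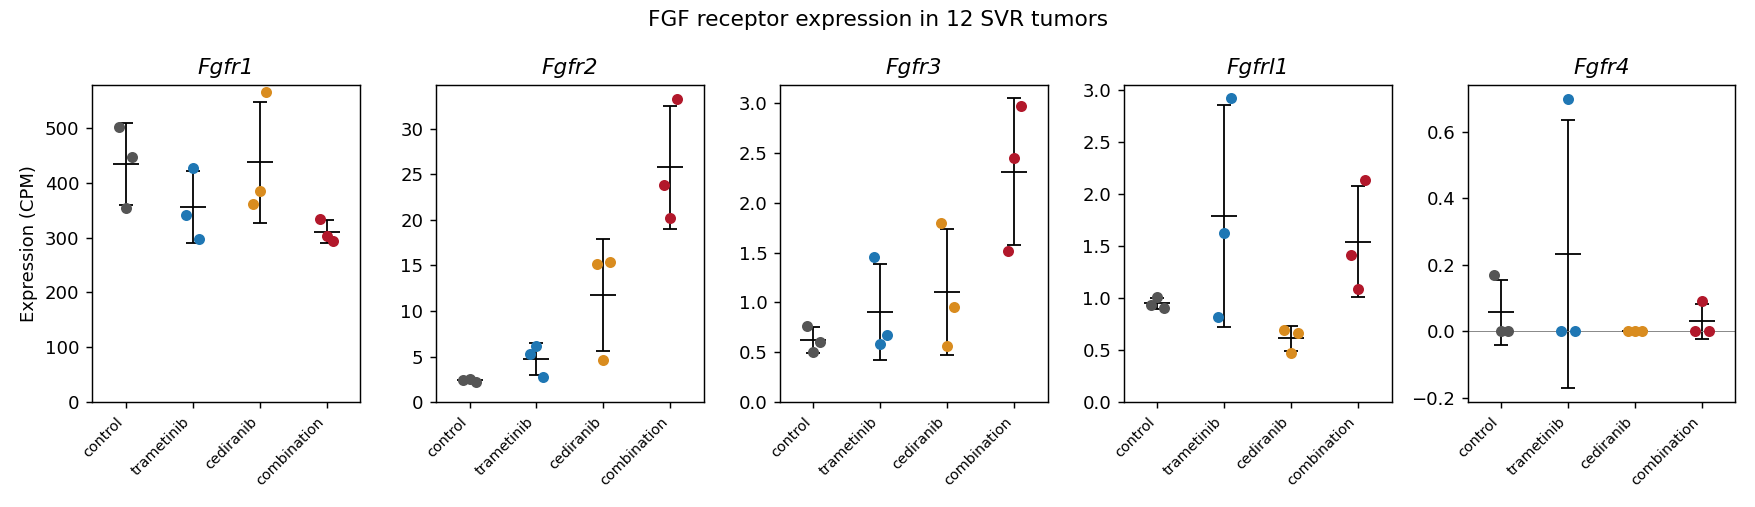
Expression of the 5 FGF receptor genes in CPM (linear axes, a scale of its own for each gene) in the 3 tumors of each treatment, with points for tumors, horizontal marks for the mean and bars for the SD. Fgfr2 lies between 20.2 and 33.2 CPM in the combination treated tumors, above the 2.22 to 2.53 CPM of control, while Fgfr1 stays between 294 and 564 CPM.

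Fgfr1 (ENSMUSG00000031565, chromosome 8, 25513654 to 25575718, plus strand, GRCm38) encodes the receptor through which FGF2 acts on mesenchymal and endothelial cells. It had 501, 353 and 447 CPM in control, 341, 426 and 298 CPM with trametinib, 361, 385 and 564 CPM with cediranib and 334, 303 and 294 CPM with the combination. The combination treated tumors were the lowest as a group and did not overlap with control or with cediranib treated tumors, whereas all other pairs of these groups overlapped. Against control the log2 fold change was -0.48 in combination treated tumors (standard error 0.192, 95% interval -0.90 to -0.06, FDR 0.128 in edgeR), which is below the threshold in size and in FDR. It was -0.29 with trametinib (interval -0.71 to 0.13) and 0.01 with cediranib (interval -0.41 to 0.43). With at least 3171 counts in each library, Fgfr1 had the narrowest intervals of the 8 tested genes. The antisense gene Gm16159, with 49 to 149 counts a library, shares 164 exon bases (1.66%) with it.

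Fgfr2 (ENSMUSG00000030849) encodes the receptor of FGF7 and FGF10 in epithelia. The table places it on chromosome 7 from 130162451 to 133123350, minus strand, a span of 2960900 bases that holds many other genes. In GENCODE M21 only 1 of its 27 transcripts reaches that far. The others end by 130266263, and the long one shares 314 exon bases, 3.04% of the Fgfr2 exons, with Ctbp2 on the same strand. Ctbp2, a transcriptional co-repressor, had a mean of 102 CPM in control, 60.7 in trametinib treated, 114 in cediranib treated and 60.3 CPM in combination treated tumors. The part of reads from the shared bases in the Fgfr2 counts was not tested.

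The ligands that FGFR2 accepts depend on alternative splicing within one of its immunoglobulin-like domains. The epithelial form, IIIb, binds FGF7 and FGF10. Its exon is shown because the form sets the ligands of the receptor, while the counts are per gene and add up all forms. It lies at chr7:130199758-130199905 on the minus strand of GRCm38, has 148 bases and is part of 10 of the 17 coding transcripts in GENCODE M21:
Fgfr2 exon IIIb: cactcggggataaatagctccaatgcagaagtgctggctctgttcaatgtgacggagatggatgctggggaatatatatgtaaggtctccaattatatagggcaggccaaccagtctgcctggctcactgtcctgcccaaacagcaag

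Fgfr2 was low and uniform in control tumors and highest in combination treated tumors. It had 2.47, 2.53 and 2.22 CPM in the control tumors and 5.27, 6.17 and 2.76 CPM with trametinib. It had 15.2, 4.63 and 15.4 CPM in cediranib treated tumors and 23.8, 20.2 and 33.2 CPM in combination treated tumors. All 9 treated tumors lay above all 3 control tumors, and the combination treated tumors lay above the other 9. Cediranib replicate 2 lay within the range of the trametinib treated tumors, while the other cediranib treated tumors lay above it.

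Compared to control, combination treated tumors had 10.6-fold higher Fgfr2 (log2 fold change 3.41, standard error 0.447, 95% interval 2.44 to 4.38, FDR 0.00155 in edgeR). Fgfr2 and Fgfr3 were the 2 of 8 tested members called in this comparison, both higher, beside 3.61% of all genes tested. The median log2 fold change of the 8 genes was 0.46, and that of all genes was 0.00155. Fgfr2 was also called against trametinib treated tumors (log2 fold change 2.45, standard error 0.422, FDR 0.0278), as 1 of 8 members beside 0.675% of all genes. This call was lost when any of the 6 libraries was left out, with an FDR of 0.0662 to 0.0897 in edgeR and a log2 fold change of 2.18 to 2.68. Against cediranib treated tumors Fgfr2 differed by 1.13 on the log2 scale (standard error 0.397, FDR 0.107), and 0 of 8 members were called beside 2.45% of all genes.

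The single agents gave no call among the members. In cediranib treated tumors compared to control Fgfr2 had a fold of 4.85 (log2 fold change 2.28, standard error 0.439, 95% interval 1.32 to 3.23). Its unadjusted p was 0.000223 and its FDR 0.999, and edgeR called 0 of 12897 genes (0%) in this comparison, with 557 at an unadjusted p under 0.05. Without cediranib replicate 2 Fgfr2 was called (log2 fold change 2.66, FDR 0.0196), and it was also called by the likelihood ratio test of edgeR (FDR 0.00448) and by DESeq2 (FDR 0.000876). Trametinib treated tumors differed from control by 0.96 for Fgfr2 (standard error 0.444, interval -0.01 to 1.93, FDR 0.246), and 0 of 8 members were called beside 2.4% of all genes. The interaction, which sets the change with cediranib on top of trametinib against that with cediranib alone, was 0.17 for Fgfr2 (95% interval -1.14 to 1.49, FDR 0.973). Of all genes, 0% had an interaction at this FDR, with 909 at an unadjusted p under 0.05, and the lowest FDR of a member was 0.809.

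**Figure D2:**
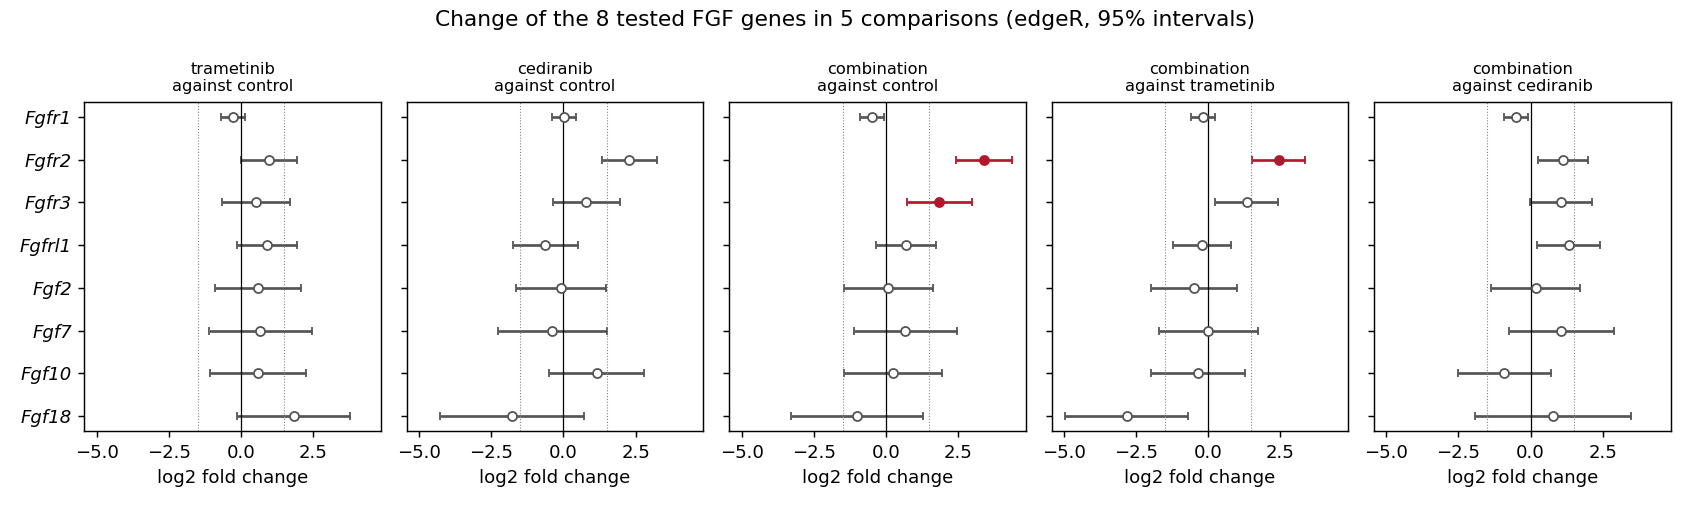
The log2 fold change of the 8 tested FGF genes (x axis) in 5 comparisons of treatment groups, with 95% intervals from edgeR, filled red points for genes called and dotted lines at a log2 fold change of 1.5 in size. Fgfr2 is called in combination treated tumors against control (3.41) and against trametinib treated tumors (2.45), and Fgfr3 against control (1.86).

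Epidermal markers and Fgfr2 were highest in the same cediranib and combination treated tumors. With trametinib the median log2 fold change of the markers was negative, and that of Fgfr2 was positive but not called. The tumors with the 5 highest marker sums also had the 5 highest Fgfr2 levels, 15.2 CPM or more. The basal keratinocyte keratin Krt14 was at 821 to 2340 CPM in these 5 tumors, at 266 CPM in control replicate 1 and at 2.36 CPM or less in the other 6. Trp63, which encodes the p63 factor of basal keratinocytes, was at 8.23 to 15.7 CPM in the 5 tumors and at 1.79 CPM or less in the others. Apart from these, control replicate 1 had 716 CPM of the 26 markers with 2.47 CPM of Fgfr2. The trametinib treated tumors had 89.9 to 108 CPM of the markers, with 2.76 to 6.17 CPM of Fgfr2. These marker sums lay between those of control replicates 2 and 3 (162 and 84.7 CPM). Gene by gene, 1 of the 23 tested markers had a positive log2 fold change with trametinib against control, with a median of -3.51, and 1 was called lower. Among the markers, Ivl was at 0 CPM in every trametinib treated tumor. It was at 33.9 CPM in control replicate 2 and 33.0 CPM in cediranib replicate 2, where Krt14 was at 2.36 CPM or less. Fgfr2 itself lay above control in all 3 trametinib treated tumors. Cediranib replicate 2 had 97.2 CPM of the markers with 4.63 CPM of Fgfr2.

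With an epidermal score (the mean log2 CPM of 19 epidermis markers without keratins) added to the model, Fgfr2 was not called in combination treated tumors against control (log2 fold change 2.02, FDR 0.121 in edgeR) or against trametinib treated tumors (0.45, FDR 0.994). In the same model it was called in trametinib treated tumors against control (1.57, FDR 0.0323). The score includes Ivl, which was at 0 CPM in every trametinib treated tumor and at 7.15 to 33.9 CPM in control. The effect of Ivl on this call was not tested. Outside the cediranib group the score and the treatments share most of their spread. The score was 3.13 or more in every combination treated tumor. It was between -0.98 and -0.62 in the trametinib treated tumors, below the -0.09 to 1.56 of control. Within the cediranib group it was 3.02, 0.0029 and 3.05. The part of skin in the Fgfr2 level was not tested.

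**Figure D3:**
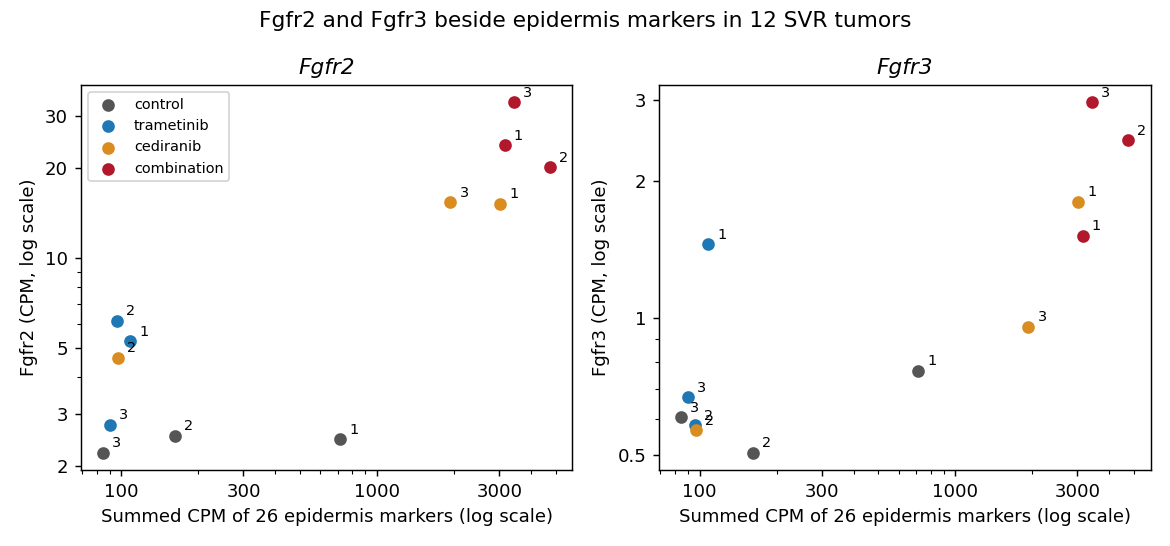
Fgfr2 (left) and Fgfr3 (right) in CPM against the summed CPM of 26 epidermis markers, both on log axes, with 1 point per tumor numbered by replicate and coloured by treatment. The 3 combination treated tumors and cediranib replicates 1 and 3 lie at 1933 CPM of markers or more, with Fgfr2 at 15.2 CPM or more.

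The genes most like Fgfr2 across the 12 tumors, by Pearson's r of log2 CPM, were Smpd3 (0.957), Hephl1 (0.954) and Mpzl2 (0.945). Smpd3 encodes a neutral sphingomyelinase and Mpzl2 an epithelial cell adhesion protein. Their mean levels in control were 0.153, 0.0284 and 0.0673 CPM, all under the level of 3 counts, and in combination treated tumors 4.74, 2.02 and 2.57 CPM. For Fgfr1 the genes most alike were Nr2c2ap (0.934), Exosc10 (0.867) and Tex10 (0.858). These values describe 12 tumors that share treatments and tissue content.

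Fgfr3 (ENSMUSG00000054252, chromosome 5, 33721674 to 33737067, plus strand) encodes a receptor known for restraining growth of cartilage and also present in keratinocytes. It had 0.767, 0.507 and 0.606 CPM in the control tumors and 1.45, 0.582 and 0.670 CPM with trametinib. It had 1.8, 0.568 and 0.957 CPM with cediranib and 1.51, 2.45 and 2.97 CPM with the combination, from 5 to 32 counts in a library. The combination treated tumors did not overlap with control or with trametinib treated tumors but did overlap with cediranib treated ones. The log2 fold change against control was 1.86 (standard error 0.520, 95% interval 0.73 to 2.99, FDR 0.0428 in edgeR), a 3.63-fold higher level that was called. The call was lost when any of the 6 libraries was left out, with an FDR of 0.0558 to 0.131, and once the epidermal score entered the fit (0.61, FDR 0.854). G630022F23Rik, on the opposite strand, shares 998 exon bases (13.9%) with Fgfr3 and had at most 2 counts a library. The pseudogene Fgfr3-ps had 0 to 4 counts a library. Adding them to Fgfr3, an alternative chosen after seeing the data, gave 1.55 with an FDR of 0.0617. Fgfr3 had a log2 fold change of 1.34 against trametinib treated (FDR 0.192) and of 1.06 against cediranib treated tumors (FDR 0.222), of 0.52 with trametinib and of 0.80 with cediranib against control. The genes most like it were Phf14 (r 0.951), Pou5f2 (0.950) and Vti1a (0.949).

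Promoters of the called receptors are shown because Fgfr2 and Fgfr3 both had their highest mean in combination treated tumors. Windows of 250 bases before the RefSeq start (GRCm38.p6) were found for 8 of the 10 genes. Each was searched on both strands for GGGCGG (the GC box), TGANTCA (AP-1), CCGGAAG (ETS factors) and TATAAA, which 33%, 6.73%, 6.95% and 12.3% of 32536 promoter windows hold. The Fgfr2 window (chr7:130266809-130267058, minus strand) had 2 CpG and 0 matches. It follows the RefSeq start, whereas the Fgfr2 transcripts of GENCODE M21, apart from the long one, reach no further than 130266263. The first of the 2 Fgfr3 windows (chr5:33721474-33721723, plus strand) had 19 CpG and 3 GC boxes, against a median of 6 CpG in all windows. In the sequences, capitals mark the GC boxes, and Fgfr3 is shown for its first 200 bases (chr5:33721474-33721673), which end before the first exon of GENCODE M21:
Fgfr2 promoter: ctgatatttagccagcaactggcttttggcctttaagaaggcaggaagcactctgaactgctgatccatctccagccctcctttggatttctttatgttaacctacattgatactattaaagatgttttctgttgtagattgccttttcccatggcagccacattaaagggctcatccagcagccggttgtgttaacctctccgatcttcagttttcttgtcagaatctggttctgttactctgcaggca
Fgfr3 promoter: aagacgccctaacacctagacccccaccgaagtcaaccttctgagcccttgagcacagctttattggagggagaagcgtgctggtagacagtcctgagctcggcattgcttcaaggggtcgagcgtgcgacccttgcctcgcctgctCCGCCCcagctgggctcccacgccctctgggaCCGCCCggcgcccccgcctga
A match is a string of letters and not a site of binding, and the tumors carry no measurement at these windows.

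Fgfrl1 (ENSMUSG00000008090, chromosome 5, 108692382 to 108706924) encodes a receptor that binds FGFs but lacks the kinase domain. It had 0.937, 1.01 and 0.909 CPM in the control tumors and 0.817, 1.63 and 2.93 CPM with trametinib. It had 0.699, 0.473 and 0.670 CPM with cediranib and 1.41, 1.09 and 2.13 CPM with the combination. The cediranib treated tumors were all below control and the combination treated tumors all above it, in counts of 5 to 35 a library. Its largest difference lay between combination and cediranib treated tumors (log2 fold change 1.32, standard error 0.50, FDR 0.135 in edgeR). It was 0.91 with trametinib, -0.63 with cediranib and 0.69 with the combination against control, and it was called in 0 of the 5 comparisons.

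Fgfr4 (chromosome 13, 55152640 to 55168759), best known for its role in bile acid control in the liver, had 9 counts in all. Of these 6 were in trametinib replicate 2, and 9 of 12 libraries had 0 counts, which allows up to 0.349 CPM in a library. A difference in Fgfr4 was not detectable at this depth.

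As a share of the summed CPM of the 5 receptors, Fgfr1 made up 99.1% ± 0.168 (SD, n = 3) in control, 97.9% ± 0.0431 in trametinib treated, 97.0% ± 1.61 in cediranib treated and 91.3% ± 2.41 in combination treated tumors. The share of Fgfr2 was 0.564% ± 0.126 in control, 1.28% ± 0.324 with trametinib, 2.62% ± 1.41 with cediranib and 7.59% ± 2.09 with the combination. For both genes each treated group lay wholly on one side of control. With 3 tumors against 3 the two-sided exact permutation test cannot go below p = 0.1, which it gave for each of these differences (0.167 after Benjamini-Hochberg adjustment over 15 such tests). The share of Fgfr3 was 0.143% ± 0.00864 in control and 0.688% ± 0.243 in combination treated tumors. Without the counts of Fgfr2, Fgfr1 made up 99.6% in control and 98.7% in combination treated tumors.

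The ligands were low, with at most 39 counts in a library. Fibroblast markers, which mark a usual source of FGF7 and FGF10, summed over 10 genes to 2224 to 21150 CPM in control, 8855 to 37110 with trametinib, 1751 to 6797 with cediranib and 3132 to 5934 CPM with the combination. Their part in the ligand levels was not tested. Fgf2 (ENSMUSG00000037225, chromosome 3, 37348346 to 37405377), an angiogenic factor of endothelial cells and fibroblasts, had 0.170, 0.405 and 1.62 CPM in the control tumors and 0.817, 1.28 and 1.17 CPM with trametinib. It had 0.50, 1.13 and 0.383 CPM with cediranib and 1.01, 0.545 and 0.743 CPM with the combination. All groups overlapped with control, whose own values ran from 2 to 16 counts. Nudt6 on the opposite strand shares 640 exon bases with Fgf2, and Gm43439 on the same strand shares 255 (3.76%). The sources used here do not give the strand setting of the counts.

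Fgf7 (ENSMUSG00000027208, chromosome 2, 126034658 to 126091185), the keratinocyte growth factor, had 0.170, 0.608 and 1.92 CPM in the control tumors and 2.09, 1.05 and 1.09 CPM with trametinib. It had 0.50, 0.851 and 0.670 CPM with cediranib and 0.606, 3.18 and 0.464 CPM with the combination. The highest value was in combination replicate 2, and the other combination treated tumors lay within the range of control. Fgf10 (ENSMUSG00000021732, chromosome 13, 118669791 to 118789334), a mesenchymal signal to epithelia in skin and lung, had 0.937, 0.710 and 1.01 CPM in control, 0.363, 0.582 and 3.01 CPM with trametinib, 1.40, 3.40 and 1.15 CPM with cediranib and 1.41, 0.363 and 1.39 CPM with the combination. The cediranib treated tumors were all above control (log2 fold change 1.15, standard error 0.754, interval -0.49 to 2.80, FDR 0.999 in edgeR). Without cediranib replicate 2 the log2 fold change was 0.51. In every other comparison with control Fgf10 overlapped. Both ligands of the epithelial form of FGFR2 thus had intervals that span 0 in all 5 comparisons.

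Fgf18 (ENSMUSG00000057967, chromosome 11, 33117430 to 33147400), a signal in bone and lung growth, had the widest range in CPM among the ligands. It had 0.170, 0.304 and 1.31 CPM in control, 0.545, 4.54 and 1.34 CPM with trametinib, 0, 0.378 and 0.0957 CPM with cediranib and 0.404, 0.182 and 0.278 CPM with the combination. All combination treated tumors lay below all trametinib treated tumors (log2 fold change -2.83, standard error 0.979, 95% interval -4.96 to -0.70, FDR 0.164 in edgeR). This difference was called only without the filter on low counts (FDR 0.00519), and with the epidermal score its sign was reversed (1.76, FDR 0.976). Against control the trametinib treated tumors had a log2 fold change of 1.82 (FDR 0.280), and 39 of their 61 counts were in replicate 2. That tumor also had the highest skeletal muscle markers (23650 CPM for 10 genes, whose part was not tested). Without it the log2 fold change against control was 0.68, and without control replicate 3 it was 3.11. Leaving out trametinib replicate 2 also moved the difference of combination from trametinib treated tumors from -2.83 to -1.69. Fgf1 (chromosome 18, 38838673 to 38929404) had 10 counts in all, 6 of them in control replicate 1, and 0 counts in 7 libraries, trametinib treated tumors included.

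**Figure D4:**
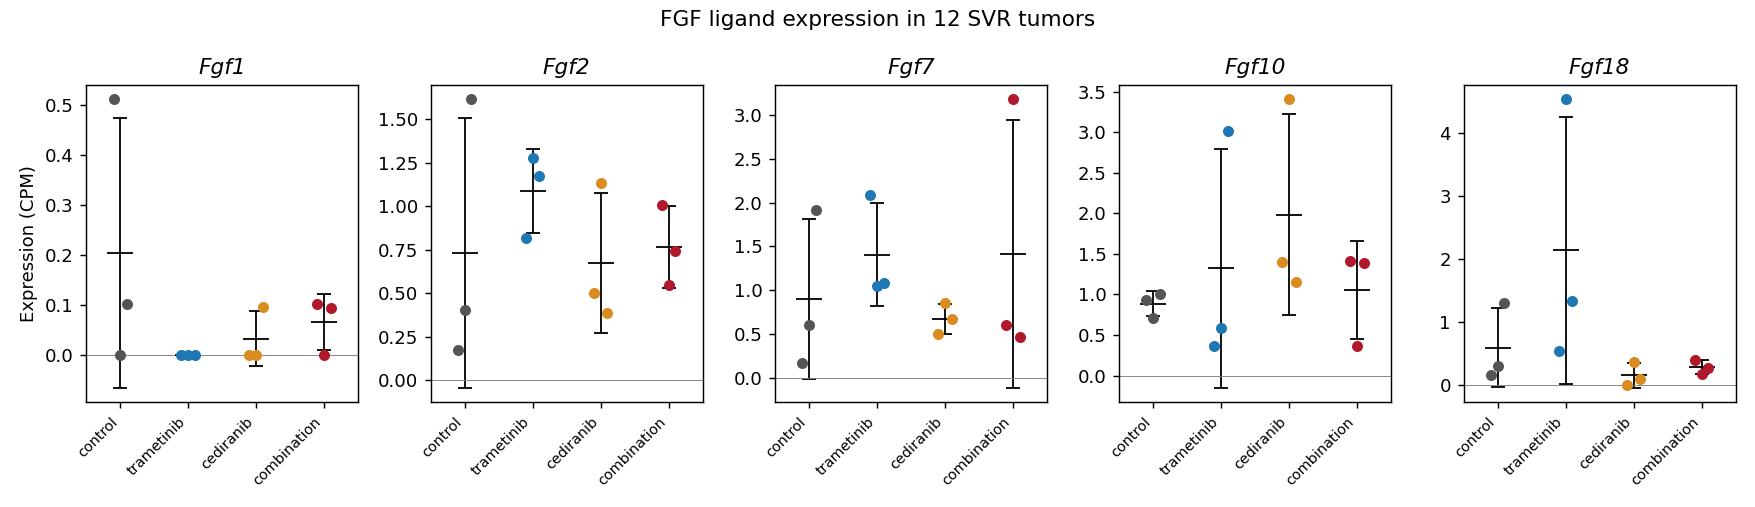
Expression of the 5 FGF ligand genes in CPM (linear axes, a scale of its own for each gene) in the 3 tumors of each treatment, with points for tumors, horizontal marks for the mean and bars for the SD. The highest value of any ligand is 4.54 CPM, for Fgf18 in trametinib replicate 2.

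Of 17 other FGF ligands, 3 passed the filter and 0 were called in any of the 5 comparisons. The most abundant was Fgf11, an intracellular member of the family, with 1.73 to 16.5 CPM. In trametinib treated tumors compared to control Fgf16 (log2 fold change -1.35, FDR 0.181 in edgeR) and Fgf11 (-1.34, FDR 0.234) had the largest differences, and neither overlapped with control. Fgf6, Fgf15, Fgf21 and Fgf23 had 0 counts in all 12 libraries.

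The pathway around the receptors was followed with 3 further lists. Among co-receptors and carriers, which present FGFs or hold them in the matrix, 18 of 24 genes were tested. Gpc4, a glypican with heparan sulfate chains, had 8.01, 12.5 and 18.1 CPM in control, 42.7, 56.9 and 40.1 CPM with trametinib, 9.29, 14.8 and 8.61 CPM with cediranib and 28.6, 46.8 and 44.6 CPM with the combination. Both groups given trametinib lay above both groups without it. It rose with trametinib (log2 fold change 1.86, FDR 0.00438 in edgeR), with the combination against control (1.64, FDR 0.00868) and with the combination against cediranib (1.87, FDR 0.00564). Flrt2, a membrane protein that binds FGF receptors, was the only other gene called, in combination against cediranib treated tumors (2.84-fold higher, FDR 0.0268). The median log2 fold change of the list was 0.19 with trametinib, -0.13 with cediranib and 0.11 with the combination. The klotho co-receptors of the endocrine FGFs were at or below the level of 3 counts, Klb with 0 CPM in all libraries, which allows up to 0.349 CPM in a library, and Kl with at most 0.101 CPM.

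Of 15 receptor adaptors 14 were tested, and 0 were called in any comparison. Frs2, the docking protein of FGF receptors, had 23.9, 22.7 and 16.3 CPM in control, 55.4, 54.6 and 44.0 CPM with trametinib, 22.0, 21.6 and 23.5 CPM with cediranib and 43.9, 39.0 and 37.8 CPM with the combination. Its log2 fold change against control was 1.29 with trametinib (standard error 0.160, FDR 0.000778 in edgeR) and 0.94 with the combination (standard error 0.159, FDR 0.00613), under the minimum of 1.5 in both. Gab1, which binds the phosphatase SHP2 downstream of FRS2, had a log2 fold change of 1.36 between combination and cediranib treated tumors (FDR 0.0188). The list as a whole had a median log2 fold change of -0.05 with trametinib and -0.05 with the combination.

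Most tested target and feedback genes of the pathway fell with trametinib. The list was chosen with earlier results of these data known, and the study had reported lower Dusp5, Dusp6, Etv5 and Egr1 with trametinib. Of the 19 genes of the list 18 were tested. In trametinib treated tumors compared to control 11 were called lower, 0 were called higher and 7 were not called. Of all genes tested 2.4% were called in this comparison. The list had a median log2 fold change of -2.24, against 0.00573 over all genes. Markers of cell types moved in the same comparison. Of 10 tested endothelial markers 4 were called lower and 0 had a positive log2 fold change (median -1.93), while all 8 tested fibroblast markers had a positive one (median 1.45) and 1 was called higher. With the combination against control 6 of the 10 endothelial markers were called lower (median -2.31). The part of these markers in the levels of the target genes was not tested. Dusp6, a phosphatase of ERK, had 47.7, 46.4 and 39.0 CPM in control, 4.54, 1.98 and 3.60 CPM with trametinib, 41.4, 43.6 and 43.1 CPM with cediranib and 13.9, 11.4 and 10.2 CPM with the combination. The ERK-induced factors Egr1 and Etv5 had log2 fold changes of -4.49 (FDR 2.15e-06) and -3.67 (FDR 3.35e-05) with trametinib in edgeR. With cediranib 0 of 18 were called, beside 0% of all genes, and the median of the 18 was -0.08. With the combination 8 were lower and 1, Spry3, was higher than control, with a median of -1.31. Of all genes 3.61% were called with the combination. Spry3, a Sprouty family inhibitor, rose by 2.38 on the log2 scale (FDR 0.0218).

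Compared to trametinib alone, combination treated tumors had positive log2 fold changes for 17 of the 18 genes, with a median of 0.92. Of these Dusp6 (1.79, FDR 0.0196 in edgeR) and Etv5 (1.58, FDR 0.0269) were called, beside 0.675% of all genes. Both were at levels between trametinib treated and control tumors. In the same comparison all 23 tested epidermis markers had a positive log2 fold change (median 7.68), and 9 were called higher. Of 8 tested fibroblast markers 0 had a positive one (median -0.70). Of 7 macrophage markers 1 was called lower (median -1.06). The part of these markers in the levels of the target genes was not tested. With the epidermal score as covariate 0 of the 18 were called in this comparison, as were 0 without combination replicate 2, 1 without combination replicate 1 or 3 or trametinib replicate 2 or 3, and 2 without trametinib replicate 1. Compared to cediranib treated tumors 9 of the 18 were lower and 1 was higher, beside 2.45% of all genes called. The interaction was called for 0 of the 18 genes, beside 0% of all genes. It was positive for 17 of the 18, with a median of 1.15. The comparisons share control and combination treated tumors and so are not independent of each other. These genes are known to respond to ERK whatever activates it, so their levels do not measure FGF receptor activity alone.

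**Figure D5:**
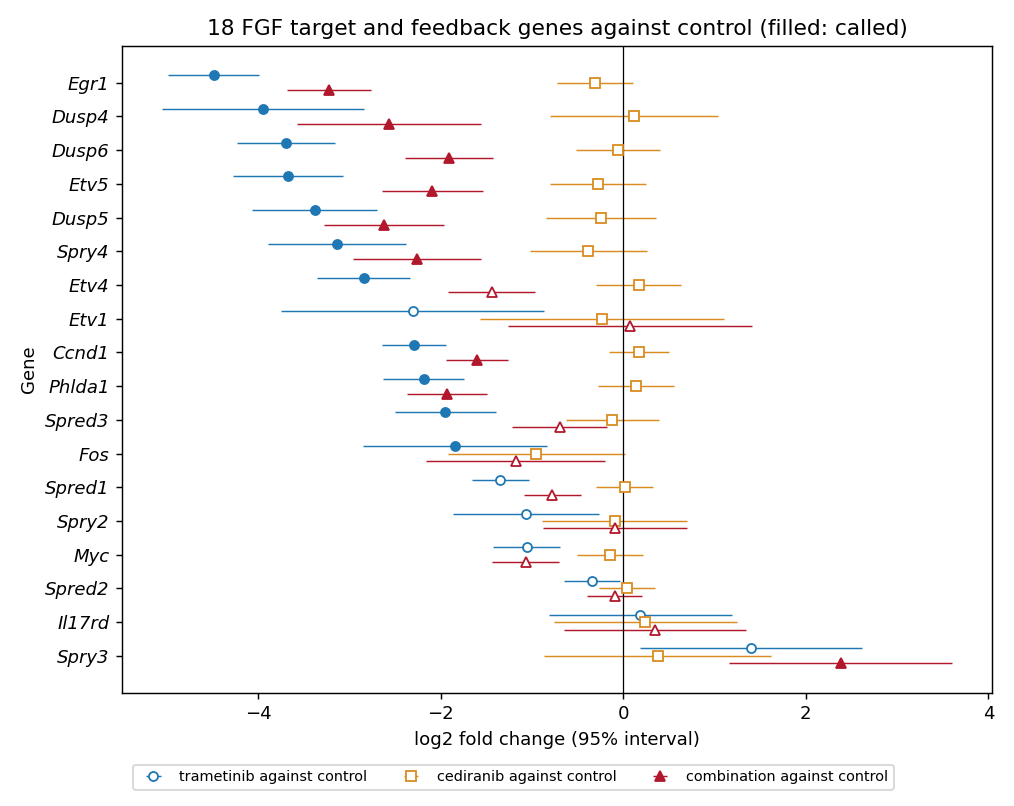
The log2 fold change against control (x axis, bars for 95% intervals in edgeR) of 18 FGF target and feedback genes (y axis) in trametinib (circles), cediranib (squares) and combination (triangles) treated tumors, with filled symbols for genes called. Of the 18 genes, 11 are called lower with trametinib, 0 with cediranib and 8 with the combination, and Spry3 is called higher with the combination. Of all genes tested, 2.4%, 0% and 3.61% are called in these comparisons.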

How the data were processed

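Whole tumor RNA of 12 SVR tumors was sequenced after exome capture. The study chose this method because RNA degradation in the tumors was relatively high. The authors deposited raw read counts per gene, without normalization. Per the labels, the tools were bcl2fastq 1.8.4, STAR 2.7.1a and featureCounts 1.6.0, on GRCm38. The sources used here do not give the strand setting or how multi-mapped reads were treated. Samples were grouped by title and treatment label, with 0 columns left over, and no 2 replicates held identical values. Per the study's methods cells were injected into a flank of every mouse, which gives separate mice, although the labels name no animal. P-values measure the spread between tumors.

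Genes were filtered with filterByExpr (minimum count 10, minimum total 15), which left 12897 of 54232. After TMM scaling, edgeR 4.0.16 (R 4.3.3) fitted its quasi-likelihood model over all 12 libraries in 1 fit, with 8 residual degrees of freedom. Standard errors were derived from the log2 fold change and its F statistic. The biological coefficient of variation was 27.2%. The test was checked on simulated counts. CPM used TMM library sizes, and log2 CPM a prior count of 2. Libraries of 9478865 to 11666094 counts set the precision, and limits from counts hold for counting error alone, because without molecular identifiers PCR copies count as reads. Receptor shares were tested by two-sided exact permutation.

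The members and gene lists were chosen with earlier results of these data known. Genes named are the 10 members, up to 6 called genes of each list by FDR or the 2 with the largest change where fewer than 2 were called, the 3 genes most like Fgfr1 and each called member, and defining markers. Alternatives covered scaling, the filter, the test (DESeq2 1.42.0 and the likelihood ratio test), the groups in the fit, a replicate block, an epidermal score, the threshold and each library left out. Positions are those of the table, overlaps and exons those of GENCODE M21, and promoters those of RefSeq, with 0 entries used for Fgfr1 and Fgf1. Some sequences are not reported here.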

Additional observations from a re-analysis of the deposited data

How the results depend on the processing

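Among members, Fgfr2 in combination treated tumors against control was called in 14 of 15 alternatives (log2 fold change 2.02 to 3.57), and Fgfr3 in 8 of 16. With the epidermal score as covariate the members called were 1 with trametinib and 0 with the combination against control, and 0 with the combination against trametinib alone. Without the filter on low counts they numbered 1 for cediranib against control and 2 for combination against trametinib, and by the likelihood ratio test and DESeq2 1 each for cediranib against control. Leaving out 1 library gave 0 to 1 members for cediranib against control, 1 to 1 for combination against control and 0 to 0 for combination against trametinib. The cause of these moves was not tested, apart from the fewer libraries. The share of all genes called in each alternative is not given here, so these counts of members have no background beside them. With the replicate block Fgfr2 had 3.39 (FDR 0.00455 in edgeR) and Fgfr3 1.95 (FDR 0.0446) against control, and Fgfr2 2.41 (FDR 0.0448) against trametinib, so the block changed no call of a member. Same-numbered tumors correlated at -0.219 to 0.356 over 18 pairs, 3 of them over 0.1, so the numbers do not pair the tumors.

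No called value of a member changed sign. Among values not called, the epidermal score gave sign changes to -0.15 for Fgfr1 with cediranib, -0.49 for Fgfr3 and 1.76 for Fgf18 in combination against trametinib treated tumors, and -0.93 for the interaction of Fgfr2. Further sign changes occurred over the alternatives. In combination against trametinib treated tumors Fgf2 went from -0.50 to as much as 2.31 and Fgf10 from -0.36 to 1.65. With the combination against control Fgf18 went from -1.01 to as much as 2.39. Leaving out 1 library gave ranges of -0.23 to 0.13 for Fgfr1 with cediranib, -0.0027 to 0.74 for Fgfr3 with trametinib, -0.57 to 0.37 for Fgfrl1 in combination against trametinib treated tumors and -0.21 to 0.44 for the interaction of Fgfr2. Ligands changed sign with 1 library left out. Fgf10 with trametinib against control went from 0.60 to -0.92 without trametinib replicate 3. Fgf7 went from 0.68 to -0.72 with the combination against control, and from 0.01 to -1.37 against trametinib, without combination replicate 2. Without control replicate 3, Fgf2 and Fgf7 with cediranib against control went from -0.09 to 1.22 and from -0.39 to 0.81. Feedback genes called for combination against trametinib numbered 5 by FDR alone. Co-receptors called numbered 2 by FDR alone with trametinib, 2 with library totals alone, no filter, the likelihood ratio test or DESeq2 and 3 by FDR alone with the combination, and 4 by FDR alone for combination against cediranib, where the epidermal score and the 2-group fit each gave 1. Leaving out 1 library gave 1 to 2 co-receptors in both of these combination comparisons. Without the filter 1 was called with cediranib and 1 for combination against trametinib. With 0 to 39 counts a library, ligand differences had 95% intervals that depth and spread kept wide.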
